A study of Rattus norvegicus with 12 samples.

Results

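Osteoprotegerin, the TRAIL ligand, the 4 TRAIL receptors, FAS and the main TNF receptor were followed across high-glucose cultures given resveratrol alone or together with a sirtuin inhibitor. The set holds 8 of the 20263 genes in the full tables, chosen by identifier. It was built around TNFRSF11B because the level of that gene falls stepwise from HG through HG-Res to HG-Res-SIRT7-Inh, so the 3 differences of TNFRSF11B are given as a description, with no test. The other 7 genes belong to the same ligand and receptor system, and their differences were tested. All 8 genes were above 0 in every library and passed the filter on low values.

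By their labels, the libraries were made from H9C2, known as a cell line from embryonic rat heart. The labels call the cells cardiomyocytes and wild type. They give 3 biological replicates per group and poly(A)-selected RNA taken after 48 h. HG-Res-SIRT7-Inh cells were kept in 100 mM glucose with 5 µM resveratrol, a plant polyphenol, and 5 µM of an inhibitor labelled as specific for SIRT7 and named SirReal2, a compound generally known as an inhibitor of SIRT2. HG-Res cells had 100 mM glucose and 5 µM resveratrol, and HG cells had 100 mM glucose and no drug. The remaining group, Ctrl, had 5.5 mM glucose, but the table of HG against Ctrl lists 354 genes and 0 of the 8, so their levels in normal glucose were not analysed here. The labels describe no osmotic control, no vehicle and no group with the inhibitor alone, so the inhibitor was seen only on top of resveratrol. All replicates are labelled as 1 cell line.

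Osteoprotegerin is a soluble member of the TNF receptor superfamily. It is best known in bone, where it captures RANKL and so restrains the formation of osteoclasts, and it can also bind TRAIL. TRAIL is a membrane ligand that can trigger apoptosis through receptors with a cytoplasmic death domain, which recruit FADD and caspase-8. In humans, a pair of these are death receptors, TNFRSF10A and TNFRSF10B, while TNFRSF10C, which has no death domain, and TNFRSF10D, whose death domain is truncated, bind TRAIL without the full death signal and are called decoys. FAS is the receptor of FAS ligand, and TNFRSF1A carries most TNF signalling to NF-kB and, in some settings, to cell death.

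The species of these rows needs care. All 20263 identifiers carry the human Ensembl prefix, whereas the labels give rat and the build rn6. The files hold identifiers alone, and the symbols used here came with the definition of the gene set. A rat gene table (assembly GRCr8) held 5 of the 8 symbols and none for TNFRSF10A, TNFRSF10C and TNFRSF10D. These 3 rows were nevertheless above 0 in all 9 high-glucose libraries, at 1.35 to 2.6, 0.96 to 1.97 and 34.2 to 54.7 CPM. How reads from cells labelled rat came to be counted there was not tested. The identifiers of other genes are not paired with names, so other pathway members and markers of heart, muscle or other cell types were not analysed here, and the labelled cell type was not checked. RNA was measured in bulk, where fewer cells of a type and less RNA per cell cannot be told apart.

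Levels are in CPM, reads of a gene scaled to the same total in every library. They compare a gene between libraries but not a gene with another gene, since they are not divided by gene length. The depth recovered from the values was 30.3 to 33.2 M reads per library. Along the first principal component of 12854 genes, which took 56.1% of the variance, HG replicate 2 lay at 29.7 and HG-Res-SIRT7-Inh replicate 3 at -50.7, and the other 7 libraries at -17.1 to 14.4. These 2 libraries stand apart, and results are also given without them where that changes a call. They were picked from these same values, and leaving them out can lower the spread that the test uses. Without both, 2722 genes had a limma adjusted p under 0.05 for HG-Res over HG, beside 91 with all libraries. The counts were 2412 beside 780 for HG-Res-SIRT7-Inh over HG-Res, and 3991 beside 1385 for HG-Res-SIRT7-Inh over HG. A call made only without them thus supports nothing by itself. The median SD of a gene between replicates was 0.242 in HG-Res-SIRT7-Inh, 0.0713 in HG-Res and 0.132 in HG, on the log2(CPM + 1) scale.

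TNFRSF11B (ENSG00000164761), which encodes osteoprotegerin, had 16.4, 15.1 and 20.6 CPM in HG-Res-SIRT7-Inh, 82.5, 90.0 and 83.3 CPM in HG-Res, and 155.8, 140.3 and 153.6 CPM in HG. No library of a group reached into the range of another group. The means were 17.4 ± 2.86, 85.3 ± 4.12 and 149.9 ± 8.39 CPM (SD, n = 3 each). HG-Res thus kept 56.9% of the HG level, HG-Res-SIRT7-Inh kept 20.4% of the HG-Res level, and HG-Res-SIRT7-Inh kept 11.6% of the HG level. Differences of mean log2(CPM + 1) were -0.81 for HG-Res minus HG, -2.24 for HG-Res-SIRT7-Inh minus HG-Res and -3.05 for HG-Res-SIRT7-Inh minus HG. The step with the inhibitor was thus the longer of the pair. The values rest on about 471 to 4954 reads per library, and the counting error, at most 4.33% of a group's level on average, is small beside these differences.

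**Figure D1:**
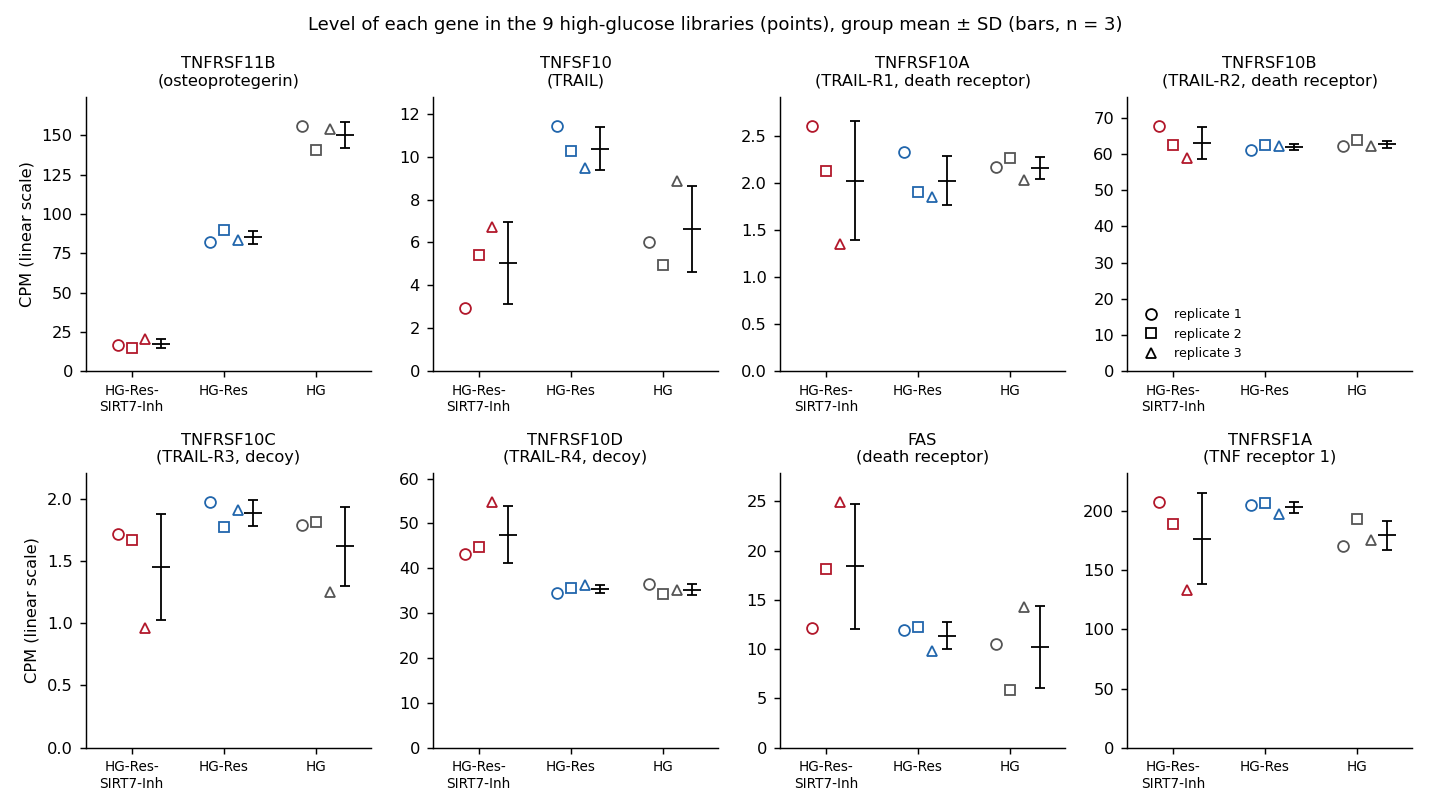
CPM of each gene (vertical axes, linear, from 0) in HG-Res-SIRT7-Inh, HG-Res and HG, with a symbol per replicate and the group mean ± SD as a bar (n = 3). TNFRSF11B is in 3 separate bands at 15.1 to 20.6, 82.5 to 90.0 and 140.3 to 155.8 CPM, while TNFRSF10B lies between 59.0 and 67.7 CPM in all 9 libraries.

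The stepwise pattern of TNFRSF11B was shared with other genes. Of the 12854 genes tested, 365 (2.84%) had 3 groups that did not overlap in this falling order, and 194 (1.51%) had the opposite, rising order. Falls of at least 1.5-fold at both steps were seen in 38 of the 365. By its difference between HG-Res-SIRT7-Inh and HG, TNFRSF11B ranked 2 among all genes tested, counted from the most negative. Since the gene was chosen for this pattern, the rank describes it and supports nothing further.

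**Figure D2:**
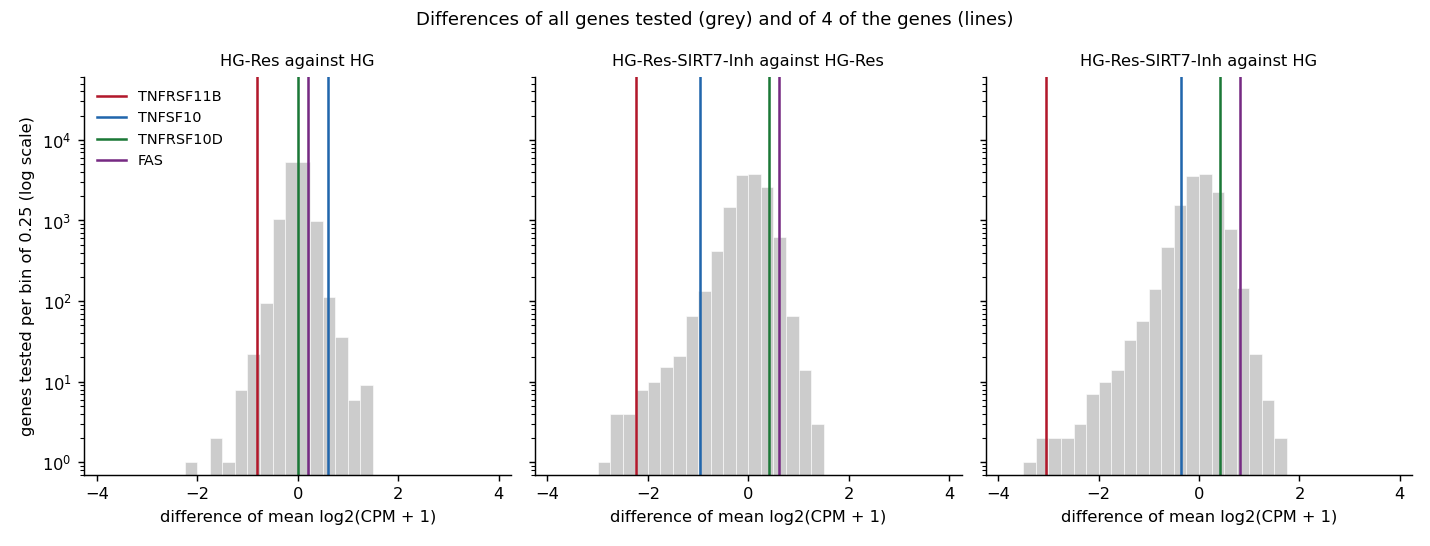
Number of genes tested (vertical axis, log scale) by difference of mean log2(CPM + 1) in bins of 0.25 (horizontal axis) for the 3 comparisons, with lines at 4 genes of the set. TNFRSF11B is at -0.81, -2.24 and -3.05. TNFSF10 is to the right of 0 for HG-Res over HG and to the left of it in the other comparisons. TNFRSF10D and FAS are to the right of 0 in all 3, but only by 0.01 and 0.21 for HG-Res over HG.

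Likeness to TNFRSF11B over the 9 high-glucose libraries was measured as the Pearson correlation of log2(CPM + 1), among the 233 other genes whose group means spanned at least 1 on that scale. The 5 genes most like it had r of 0.9897 to 0.9931, which is given as a description, since the libraries share 3 treatments and the correlation mostly follows the group means. The closest, ENSG00000134531, was at 42.6 ± 4.97 CPM in HG-Res-SIRT7-Inh, 76.0 ± 0.507 CPM in HG-Res and 89.5 ± 4.41 CPM in HG (SD, n = 3). The next, ENSG00000198796, was at 10.7 ± 0.804, 19.2 ± 1.43 and 23.3 ± 0.794 CPM in the same order of groups. Of the 5, 4 kept 38.8% to 47.6% of their HG level in HG-Res-SIRT7-Inh, a larger share than TNFRSF11B, and the other kept 10.7%. None of the other 7 genes of the set met the condition on the span of group means.

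TNFSF10 (ENSG00000121858), which encodes the TRAIL ligand, had its highest level in HG-Res. It had 2.97, 5.43 and 6.73 CPM in HG-Res-SIRT7-Inh, 11.4, 10.2 and 9.46 CPM in HG-Res, and 6.04, 4.97 and 8.87 CPM in HG. The 3 HG-Res libraries were the highest of the 9, above every library of the other groups, and those other groups overlapped. Group means were 5.04 ± 1.91 CPM in HG-Res-SIRT7-Inh, 10.4 ± 0.987 CPM in HG-Res and 6.63 ± 2.01 CPM in HG (SD, n = 3 each), a 1.57-fold higher mean in HG-Res than in HG and 48.6% of the HG-Res mean in HG-Res-SIRT7-Inh.

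Neither difference of TNFSF10 passed an adjusted p of 0.05 in limma over all genes. For HG-Res over HG it was 0.61 ± 0.25 (SE) on the log2(CPM + 1) scale (limma adjusted p = 0.419). For HG-Res-SIRT7-Inh over HG-Res it was -0.96 ± 0.25 (limma adjusted p = 0.0529), just short of the threshold. Both values depended on the libraries and the test. For HG-Res over HG, the limma adjusted p was 0.106 with the 2 groups alone and reached 0.891 without HG replicate 1. Of its 18 alternatives only the authors' q passed. The difference of HG-Res-SIRT7-Inh from HG-Res passed in more of them. Without HG-Res-SIRT7-Inh replicate 3 the difference was -1.17 and passed (limma adjusted p = 0.0236), and without HG replicate 2 it passed at 0.0407. Without both it was -1.17 and passed (limma adjusted p = 0.00582), in a fit where 2412 genes passed, beside 780 with all libraries. The adjusted p or the authors' q ranged from 0.00493 to 0.176 over 18 alternatives, of which 6 passed. By the authors' deposited values TNFSF10 had a log2 fold change of 0.66 for HG-Res over HG (q = 0.0357). There 5.38% of all 20263 genes had a q-value under 0.05. For HG-Res-SIRT7-Inh over HG-Res the log2 fold change was -1.07 (q = 0.00493), where 5.65% of the 20263 did. These shares include genes that fail the filter on low values, unlike the shares over the 12854 genes tested. The 2 comparisons share the HG-Res libraries. The difference of HG-Res-SIRT7-Inh from HG was -0.36 ± 0.25 (limma adjusted p = 0.367), and without both libraries that stand apart it was -0.72 and passed (limma adjusted p = 0.0388, the lowest of 18 alternatives). Leaving out replicate 1 of HG-Res-SIRT7-Inh brought it to -0.08 (limma adjusted p = 0.788, the highest), and leaving out HG replicate 3 to -0.16 (0.710).

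The ratio of osteoprotegerin to TRAIL reads within a library describes the level of TNFRSF11B relative to TNFSF10. The means moved in opposite directions only for HG-Res over HG, and both were lower in HG-Res-SIRT7-Inh than in either other group. TNFRSF11B over TNFSF10 was 5.54, 2.79 and 3.06 in HG-Res-SIRT7-Inh, 7.22, 8.79 and 8.81 in HG-Res, and 25.8, 28.2 and 17.3 in HG. The 3 groups did not overlap, with means of 3.79 ± 1.52, 8.27 ± 0.911 and 23.8 ± 5.72 (SD, n = 3 each). The ratio is not corrected for gene length, and it contains the gene that chose the set, so it was not tested.

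**Figure D3:**
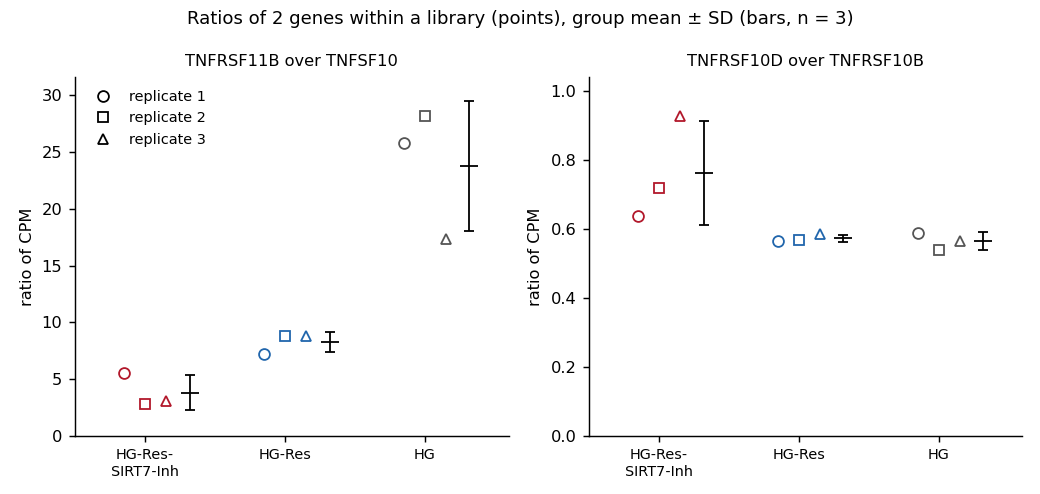
Ratio of the CPM of 2 genes within each library (vertical axes, from 0) in HG-Res-SIRT7-Inh, HG-Res and HG, with a symbol per replicate and mean ± SD (n = 3). TNFRSF11B over TNFSF10 averages 3.79, 8.27 and 23.8, and TNFRSF10D over TNFRSF10B averages 0.761, 0.572 and 0.563.

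The death receptors for TRAIL were close in level across the groups. TNFRSF10B (ENSG00000120889), TRAIL receptor 2, had 67.7, 62.5 and 59.0 CPM in HG-Res-SIRT7-Inh, 61.1, 62.5 and 62.2 CPM in HG-Res, and 62.1, 63.7 and 62.1 CPM in HG. Its difference was -0.02 for HG-Res over HG (95% limma interval -0.22 to 0.19, adjusted p = 0.987) and 0.02 for HG-Res-SIRT7-Inh over HG-Res (-0.18 to 0.23, adjusted p = 0.879). For HG-Res-SIRT7-Inh over HG it was 0.01 (-0.20 to 0.21, adjusted p = 0.969), an interval from 0.87-fold to 1.16-fold on the log2(CPM + 1) scale. The sign of these small differences changed with median-of-ratios scaling. In HG-Res the spread between replicates, 1.22% of the mean, was below the 2.26% that counting error alone would give.

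TNFRSF10A (ENSG00000104689), TRAIL receptor 1, was a low row at 2.6, 2.12 and 1.35 CPM in HG-Res-SIRT7-Inh, 2.32, 1.9 and 1.85 CPM in HG-Res, and 2.17, 2.26 and 2.03 CPM in HG. These are about 41 to 83 reads per library, for which counting error alone gives a spread of 12.1% to 13.0% of the level. All 3 groups overlapped, and the differences were -0.06, -0.02 and -0.08 for HG-Res over HG, HG-Res-SIRT7-Inh over HG-Res and HG-Res-SIRT7-Inh over HG (limma adjusted p = 0.948, 0.942 and 0.743). The interval for HG-Res-SIRT7-Inh over HG ran from -0.42 to 0.25 on the log2(CPM + 1) scale, which understates changes at such low levels. The spread between the HG-Res-SIRT7-Inh replicates, 31.2% of their mean, was above counting error.

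Among the decoys, TNFRSF10D (ENSG00000173530) was higher in HG-Res-SIRT7-Inh than in HG, groups that differ by both resveratrol and the inhibitor. It had 43.1, 44.8 and 54.7 CPM in HG-Res-SIRT7-Inh, 34.5, 35.5 and 36.3 CPM in HG-Res, and 36.6, 34.2 and 35.1 CPM in HG. The 3 libraries with the inhibitor were above all 6 others, and HG-Res and HG overlapped. Means were 47.5 ± 6.26, 35.4 ± 0.878 and 35.3 ± 1.18 CPM (SD, n = 3 each), 1.35-fold higher in HG-Res-SIRT7-Inh than in HG. TNFRSF10D rose by 0.41 ± 0.11 (SE) in HG-Res-SIRT7-Inh relative to HG (limma adjusted p = 0.0428). For HG-Res-SIRT7-Inh over HG-Res the difference was of the same size, 0.41 ± 0.11, and did not pass (limma adjusted p = 0.0617). For HG-Res over HG it was 0.01 (-0.24 to 0.25, limma adjusted p = 0.996).

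The call on TNFRSF10D was close to the threshold. It was made with a spread pooled over 3 groups, including HG-Res, where the gene varied least. Its SD was 0.878 CPM there, beside 6.26 CPM in HG-Res-SIRT7-Inh and 1.18 CPM in HG. Its difference from HG stayed between 0.29 and 0.48 over 18 alternatives, of which 7 passed, with adjusted p from 0.0129 to 0.164. The alternatives that did not pass included median-of-ratios scaling (limma adjusted p = 0.0587), the 2 groups alone (0.164) and the fits without any 1 HG replicate (0.117, 0.119 and 0.0994 without replicates 1, 2 and 3), without any 1 HG-Res replicate (0.0803, 0.0864 and 0.083) or without HG-Res-SIRT7-Inh replicate 2 (0.0919). The authors' deposited table gave q = 0.135. HG-Res-SIRT7-Inh replicate 3 was the highest library, and without it the difference was 0.31 and passed (limma adjusted p = 0.0167). Against HG-Res, the call was made when replicate 1 of HG-Res-SIRT7-Inh was left out (0.0349), when its replicate 3 was (0.0317), and when both libraries that stand apart were (0.0117), the lowest in a range up to 0.210 over 18 alternatives.

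Set against the death receptor within the same library, TNFRSF10D over TNFRSF10B was 0.637, 0.717 and 0.928 in HG-Res-SIRT7-Inh, 0.565, 0.568 and 0.583 in HG-Res, and 0.589, 0.537 and 0.564 in HG. Every library with the inhibitor was above the 6 others. This pair was chosen after the values were seen, so the ratio was not tested. Of the summed CPM of the 4 TRAIL receptors, TNFRSF10D took 37.5%, 40.4% and 47.2% in HG-Res-SIRT7-Inh. Its share was 34.6%, 34.9% and 35.5% in HG-Res, and 35.6%, 33.5% and 34.9% in HG. The ratio and the shares are not corrected for gene length, so they compare libraries and not the amounts of the receptors. TNFRSF10A, TNFRSF10C and TNFRSF10D also had no symbol in the rat gene table.

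TNFRSF10C (ENSG00000173535), the decoy anchored to the membrane by a lipid, was the lowest row of the set. It had 1.72, 1.67 and 0.96 CPM in HG-Res-SIRT7-Inh, 1.97, 1.77 and 1.91 CPM in HG-Res, and 1.79, 1.81 and 1.25 CPM in HG, from about 29 to 62 reads. The HG-Res-SIRT7-Inh libraries were all below the HG-Res libraries, and the other pairs of groups overlapped. The difference of HG-Res-SIRT7-Inh from HG-Res was -0.25 ± 0.15 (limma adjusted p = 0.297), and those of HG-Res and of HG-Res-SIRT7-Inh from HG were 0.15 and -0.10 (limma adjusted p = 0.816 and 0.665). The spread between the HG-Res-SIRT7-Inh replicates was 29.3% of their mean, where counting error alone gives 15.3%, and without replicate 3 the difference from HG-Res was -0.10 (limma adjusted p = 0.655).

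**Figure D4:**
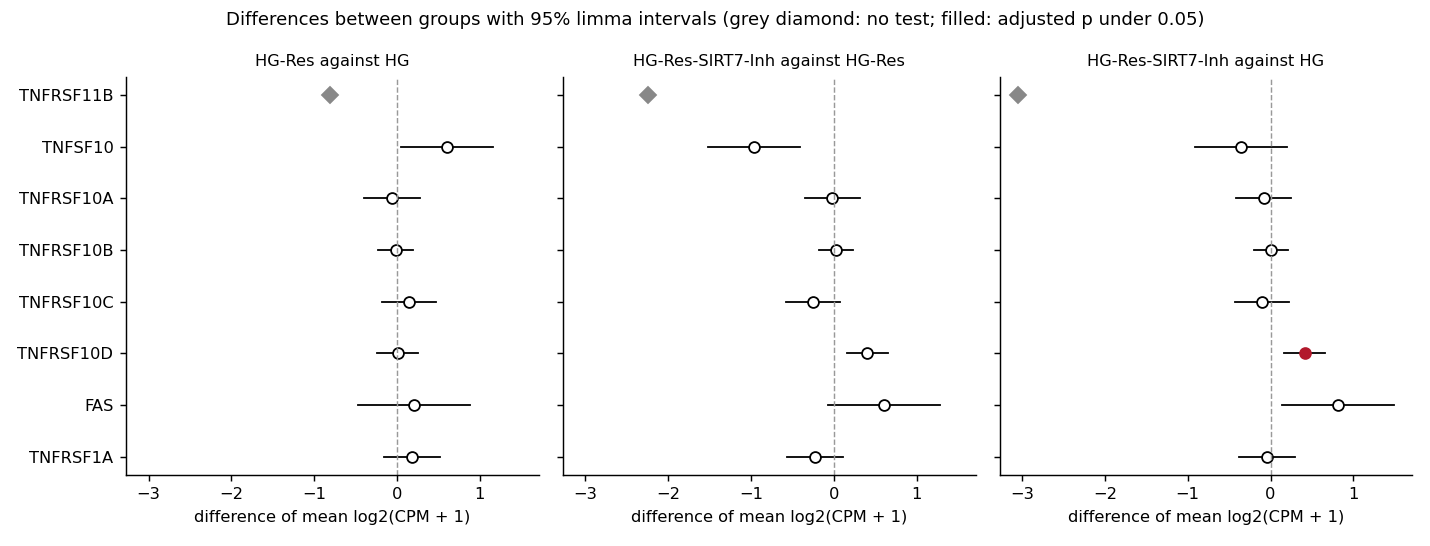
Difference of mean log2(CPM + 1) between groups (horizontal axis) for each gene, with 95% intervals from limma. TNFRSF11B is drawn without an interval because it chose the set, and the filled point is TNFRSF10D for HG-Res-SIRT7-Inh over HG, at 0.41.

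FAS (ENSG00000026103) had the widest spread of the 8 genes between the HG replicates, 41.2% of its mean. It was at 12.1, 18.2 and 24.9 CPM in HG-Res-SIRT7-Inh, 12.0, 12.3 and 9.81 CPM in HG-Res, and 10.6, 5.85 and 14.2 CPM in HG. All 3 groups overlapped, although the mean was 18.4 ± 6.39 CPM in HG-Res-SIRT7-Inh, 11.4 ± 1.35 CPM in HG-Res and 10.2 ± 4.21 CPM in HG (SD, n = 3 each). The difference was 0.81 ± 0.30 (SE) for HG-Res-SIRT7-Inh over HG (limma adjusted p = 0.118) and 0.60 ± 0.30 for HG-Res-SIRT7-Inh over HG-Res (limma adjusted p = 0.245). For HG-Res over HG it was 0.21 ± 0.30 (limma adjusted p = 0.896). The authors marked FAS as up in both comparisons of HG-Res-SIRT7-Inh, with q = 0.113 over HG and 0.0849 over HG-Res, neither under 0.05. The highest FAS library, HG-Res-SIRT7-Inh replicate 3, and the lowest, HG replicate 2, were the same libraries that lay at the ends of the first principal component, at -50.7 and 29.7. Without both, the difference of HG-Res-SIRT7-Inh from HG was 0.26 (limma adjusted p = 0.348), and it was 1.07 and passed without HG-Res-SIRT7-Inh replicate 1 (limma adjusted p = 0.0418, the lowest of 18 alternatives). What sets these libraries apart was not tested.

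TNFRSF1A (ENSG00000067182), the TNF receptor with a death domain, had 207.4, 189.5 and 133.6 CPM in HG-Res-SIRT7-Inh, 205.5, 206.5 and 197.9 CPM in HG-Res, and 170.3, 193.1 and 175.2 CPM in HG. The HG-Res libraries were above the HG libraries, and HG-Res-SIRT7-Inh overlapped with both. Its replicate 3 was the lowest of all 9 libraries and its replicate 1 the highest. The difference of HG-Res from HG was 0.18 ± 0.15 (limma adjusted p = 0.77). When both libraries that stand apart were left out it was 0.23 and passed (limma adjusted p = 0.0283, the lowest of 18 alternatives). In that fit 2722 genes passed, beside 91 with all libraries. HG-Res-SIRT7-Inh differed by -0.22 ± 0.15 from HG-Res (limma adjusted p = 0.356) and by -0.04 ± 0.15 from HG (limma adjusted p = 0.866). Without HG-Res-SIRT7-Inh replicate 3 the difference from HG-Res was -0.04 (limma adjusted p = 0.811), and that from HG was 0.14, of the opposite sign (limma adjusted p = 0.219).

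**Figure D5:**
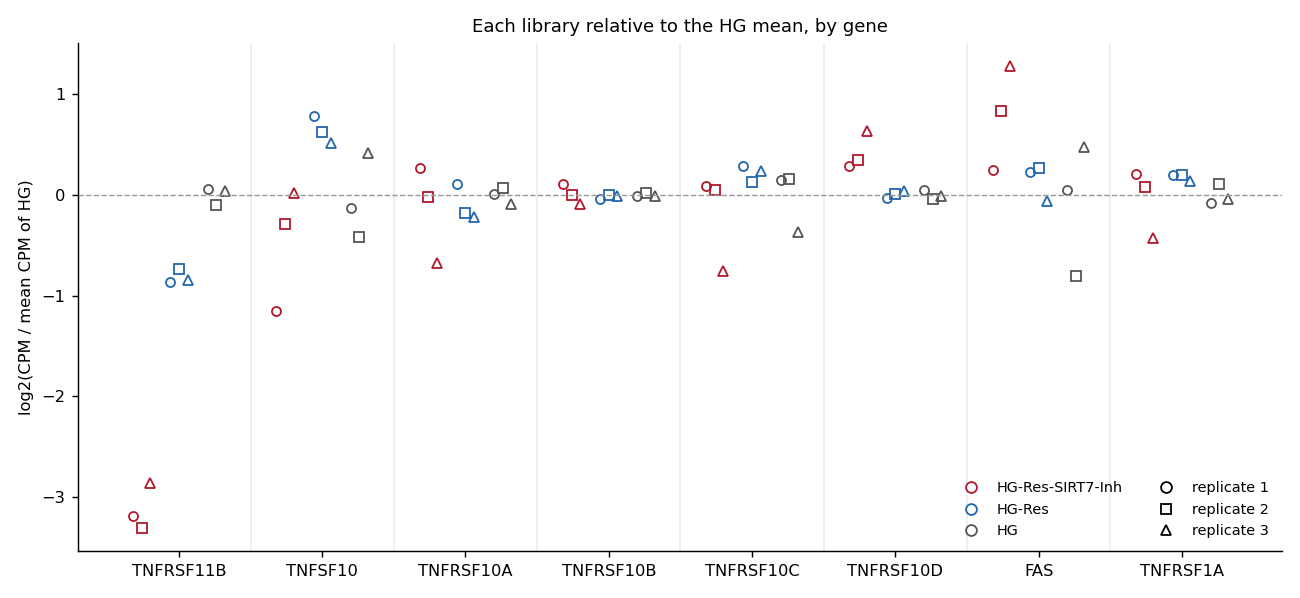
Level of each gene in each library as log2 of its CPM over the mean CPM of HG (vertical axis), with a colour per group and a symbol per replicate. HG-Res-SIRT7-Inh replicate 3 is the highest of its group for TNFRSF11B, TNFSF10, TNFRSF10D and FAS and the lowest for TNFRSF10A, TNFRSF10B, TNFRSF10C and TNFRSF1A.

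Within HG-Res-SIRT7-Inh, replicate 3 was the highest library for 4 of the 8 genes and the lowest for the other 4, and replicate 1 was at the opposite end for 7 of these 8, the exception being TNFRSF11B, which was lowest in replicate 2. The ratio of the highest to the lowest of these libraries was 1.15 for TNFRSF10B, 1.36 for TNFRSF11B and 2.05 and 2.27 for FAS and TNFSF10. The distance of TNFRSF11B from the other groups was larger than this spread, with its highest library with the inhibitor, at 20.6 CPM, below its lowest HG-Res library, at 82.5 CPM.

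Counted over the 7 genes tested, 0 passed for HG-Res over HG, where 0.708% of all genes tested did. The unadjusted p was under 0.05 for 1 of the 7 in that comparison, TNFSF10, beside 10.7% of all genes. For HG-Res-SIRT7-Inh over HG-Res 0 passed, beside 6.07% of all genes. At an unadjusted p under 0.05 there were 2 of the 7, TNFSF10 and TNFRSF10D, beside 24.6% of all genes. For HG-Res-SIRT7-Inh over HG 1 rose, TNFRSF10D, which is 14.3% of the 7 beside 10.8% of all genes in either direction and 4.27% that rose. At an unadjusted p under 0.05 there were 2 of the 7, TNFRSF10D and FAS, beside 27.9% of all genes. Replicate values did not overlap in 2 of the 7 for HG-Res over HG, TNFSF10 and TNFRSF1A, beside 29.9% of all genes. They did not overlap in 3 of the 7 for HG-Res-SIRT7-Inh over HG-Res, beside 33.7%, and in 1 of the 7 for HG-Res-SIRT7-Inh over HG, beside 28.1%. The median difference of the 7 genes was 0.15, -0.02 and -0.04 in these comparisons, and that of all genes was -0.001, 0.04 and 0.04. With 7 genes, 1 gene is 14.3% of the set, so nothing particular to the set is read from these shares. The comparisons share libraries in pairs.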

How the data were processed

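RNA of 12 libraries labelled H9C2 was sequenced after poly(A) selection, per the labels' protocols. Reads were handled with Trimmomatic and build rn6, per the submitters' processing notes; for the aligner, counter, annotation and test the sources used here give nothing. The authors deposited 4 tables with the log2 fold change of a gene, its p-value and q-value and the level in each library. The level columns are headed TPM, but in the deposited full tables low values are multiples of 1 step per library within the rounding of 0.005, so they were treated as CPM. Reads recovered from the step are approximate and served for depth, replicate checks and counting error, which treats reads as independent molecules.

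The test covered the 12854 genes that reached 0.5 CPM in 3 or more of the 9 libraries in high glucose. Values as deposited, with no further scaling, were used as log2(CPM + 1) in limma 3.58.1 (R 4.3.3), in 1 fit over 3 groups, with the prior variance following the mean level and Benjamini-Hochberg adjusted p-values over all genes, called at 0.05. Fold changes on this scale understate those of low genes. Replicate pairs differed beyond sampling noise (chi-square per degree of freedom 5.07 to 185). Named genes were the 8 members and those most like TNFRSF11B; the planned pathway and marker lists could not be paired with identifiers. The members and lists were chosen with earlier results of these data known. A planned count model was not run, since whole reads could not be shown within 0.1 of a read. P-values measure the spread between samples labelled as biological replicates. That spread is pooled over the 3 groups, so the p-value of a pair also carries the spread of the remaining group. The median SD was 0.242 in HG-Res-SIRT7-Inh, 0.0713 in HG-Res and 0.132 in HG. By these medians, pooling gives HG-Res over HG a larger spread than its own 2 groups have. It gives both comparisons of HG-Res-SIRT7-Inh a smaller spread, so their p-values can be too low.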

Additional observations from a re-analysis of the deposited data

How the results depend on the processing

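Each count of genes and each difference was recomputed under 18 alternatives. The 3 differences of TNFRSF11B kept their direction under all of them. They were -0.85 to -0.78 for HG-Res over HG, -2.36 to -2.15 for HG-Res-SIRT7-Inh over HG-Res and -3.21 to -2.96 for HG-Res-SIRT7-Inh over HG. The gene was chosen for this pattern and its groups did not overlap, so leaving out libraries could not reverse the direction. These ranges describe the size of the differences and support nothing further. The number of genes past the threshold over HG was 91 with resveratrol and depended on the fit. It was 45 under the replicate block, 596 with the 2 groups alone and 1091 by the authors' q-values, and 19 to 2722 when libraries were left out. The 780 genes for HG-Res-SIRT7-Inh over HG-Res became 414 with the 2 groups alone and 276 to 2412 without libraries. The 1385 for HG-Res-SIRT7-Inh over HG became 420 and 549 to 3991 in the same order. The upper ends are those without the pair that stood apart, namely replicate 2 of HG and replicate 3 of HG-Res-SIRT7-Inh. Counts stayed within 1.5 times under median-of-ratios scaling, no filter, a filter at 1 CPM, a pseudocount of 0.1 and 1 prior variance. The cause of these changes was not tested.

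Small differences that did not pass changed sign. That of TNFRSF10B was 0.00124, -0.00686 and -0.00563 under median-of-ratios scaling for HG-Res over HG, HG-Res-SIRT7-Inh over HG-Res and HG-Res-SIRT7-Inh over HG, and -0.00917 and -0.00584 in the authors' deposited table for the last 2. Without libraries, the differences for HG-Res over HG were -0.0153 to 0.0311 for TNFRSF10D and -0.11 to 0.47 for FAS. Those of HG-Res-SIRT7-Inh over HG-Res were -0.16 to 0.15 for TNFRSF10A and -0.0283 to 0.0694 for TNFRSF10B. Those of HG-Res-SIRT7-Inh over HG were -0.22 to 0.11 for TNFRSF10A, -0.0451 to 0.0649 for TNFRSF10B, -0.21 to 0.11 for TNFRSF10C and -0.17 to 0.20 for TNFRSF1A.

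Libraries with the same replicate number did not deviate together throughout (correlations over genes of -0.55 to 0.64 for the 9 same-numbered pairs), so the numbers were not taken to pair them. With the replicate block TNFRSF10D over HG no longer passed (limma adjusted p = 0.0684), and no other call on the 7 genes tested changed. The threshold of HG over Ctrl could not be varied, since none of the 8 genes is in that table.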
